A study of Macaca fascicularis with 10 samples.

Results

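ENSMFAG00000032157, ENSMFAG00000002145, ENSMFAG00000042836 and ENSMFAG00000000676 are genes whose RNA was higher in the macaque dorsal spinal cord on the side of a nerve injury. They are 4 of 24148 genes in the deposited table and were taken by identifier. They had been chosen by the size and evenness of their side difference in an earlier analysis of these same libraries, with no stated cut-off, so that difference is given below as a description and not as a test. RNA was sequenced from the dorsal cord of 5 cynomolgus macaques (Macaca fascicularis), each of which had received SNL surgery (spinal nerve ligation, the tying of a nerve where it leaves the spine, used to model neuropathic pain). The ipsilateral group is the right dorsal cord of the 5 animals and the contralateral group is the left dorsal cord of the same 5 animals, so 10 libraries form 2 groups of 5. The control side thus comes from operated animals as well, and animals with sham or no surgery were not analysed here. The ipsilateral side was the right one in 5 of 5 animals, so injured against uninjured and right against left cannot be told apart. The labels used here give no age, sex or time after surgery.

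The dorsal cord receives the central endings of sensory neurons that carry touch, heat and pain. Ligation of a spinal nerve injures the peripheral branches of such neurons, and the dorsal horn on that side is known from rodents to respond with activation of microglia and astrocytes and with altered signalling between neurons. The contralateral horn of the same animal is commonly used as the comparison, although it is not an untouched tissue. The table lists Ensembl identifiers alone, and 0 of the 24148 were paired with a symbol in the reference table. No name, protein, sequence or role is therefore given for any of the 4 genes, and the tissue was not checked against marker genes.

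The libraries held 26539772 to 34997645 expected counts, and the ipsilateral one was the deeper in 2 of 5 animals. Both libraries of animal 3 stood apart in their scaling: their TMM factors (composition factors that correct each library's total) were 0.830 and 0.798, against 1.03 to 1.10 in the other 8. Levels across animals differed between CPM (counts scaled to the TMM-corrected library total) and the deposited TPM, and both are given. TPM is a share of transcripts, which divides by length and uses no TMM. How much of the difference came from the TMM factors was not tested. All 4 genes passed the filter on low counts that left 16143 genes.

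Per length, the 4 genes covered a wide range of levels, and one of them was not abundant. The order by TPM was the same in 10 of 10 libraries: ENSMFAG00000042836 came first, then ENSMFAG00000032157, ENSMFAG00000000676 and ENSMFAG00000002145. On the contralateral side their mean TPM was 795 ± 119, 190 ± 42.3, 58.5 ± 33.8 and 3.80 ± 1.31 in that order (SD, n = 5 animals). The median tested gene had a contralateral TPM of 11.1, so ENSMFAG00000042836 lay 71.9 times above it and ENSMFAG00000002145 at 0.343 times that level. Only 27.3% of tested genes had a lower contralateral TPM than ENSMFAG00000002145, against 86.8% for ENSMFAG00000000676, 96.4% for ENSMFAG00000032157 and 99.3% for ENSMFAG00000042836.

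The reads of ENSMFAG00000002145 came from a long transcript. Its effective length, read from the ratio of expected count to TPM, was 4.65 to 4.70 times that of the median tested gene in the 10 libraries. The other genes were short, at 0.395 to 0.446 times the median for ENSMFAG00000042836, 0.432 to 0.462 times for ENSMFAG00000032157 and 0.487 to 0.549 times for ENSMFAG00000000676. In CPM, which is not divided by length, ENSMFAG00000002145 stood at 1.47 times the median tested gene. Neighbours in the TPM order kept apart within every library. ENSMFAG00000032157 stood at 0.178 to 0.310 times ENSMFAG00000042836 and at 1.96 to 6.09 times ENSMFAG00000000676, and ENSMFAG00000002145 at 0.037 to 0.142 times ENSMFAG00000000676. Across animals ENSMFAG00000032157 and ENSMFAG00000000676 came close, as the lowest contralateral TPM of the first (132) and the highest of the second (117) show.

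ENSMFAG00000042836, the most abundant of the 4, had contralateral TPM values of 936, 812, 743, 623 and 862 in animals 1 to 5, and ipsilateral values of 1628, 1298, 1091, 1037 and 1247. Every ipsilateral TPM lay above every contralateral one, by a gap of 101 TPM between the nearest values. The share of tested genes with such a separation in TPM was not counted, so nothing is read from it. In CPM the contralateral values were 562, 437, 724, 367 and 467.5 and the ipsilateral values 989.9, 673, 1143, 629 and 691. On that scale the groups overlapped, because the contralateral library of animal 3 was higher than the ipsilateral libraries of animals 2, 4 and 5. Within each animal the ipsilateral side was higher on both scales. The ipsilateral side held 465 ± 137 TPM more (SD, n = 5), the largest absolute difference of the 4 genes.

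ENSMFAG00000032157 had contralateral CPM values of 133, 129, 136, 100.3 and 132 in animals 1 to 5, and ipsilateral values of 249, 217, 216, 196 and 219. The groups were clear of each other, with 60.2 CPM between the highest contralateral and the lowest ipsilateral library. In TPM it went from 209, 229, 132, 159 and 220 to 388, 402, 198, 309 and 362. The ipsilateral TPM of animal 3 was lower than the contralateral values of animals 1, 2 and 5, so 4 of 5 ipsilateral libraries lay above all contralateral ones on that scale. Animal 4 had the lowest contralateral CPM, and the other 4 animals were within 128.6 to 136 CPM.

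ENSMFAG00000000676 had its highest and lowest animals further apart in level, on each side, than the 2 sides of any animal. Its contralateral TPM values were 43.4, 117, 48.5, 30.6 and 53.1 in animals 1 to 5, and the ipsilateral values were 81.6, 187, 74.4, 50.8 and 85.6. In TPM animal 2 was far above the rest on both sides and animal 4 was the lowest on both. The contralateral TPM of animal 2 thus exceeded that of 4 of the 5 ipsilateral libraries. The lead of animal 2 was smaller in CPM, at 82.4 (contralateral) and 126.8 (ipsilateral) against 59.5 and 95.7 in animal 3. On that scale 2 of 5 ipsilateral libraries lay above all contralateral ones. In CPM the highest animal was 3.46 times the lowest on the contralateral side and 3.18 times on the ipsilateral side. The absolute difference between the sides was 69.8 TPM in animal 2 and 20.3 to 38.3 TPM in the other 4.

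ENSMFAG00000002145, the long and scarce transcript, had contralateral TPM values of 4.15, 4.74, 1.77, 3.29 and 5.03 and ipsilateral values of 7.90, 9.75, 3.85, 7.22 and 8.30 in animals 1 to 5. These values rest on 535 to 1833 expected counts per library. In CPM the groups did not overlap, with contralateral values of 18.4 to 32.3 and ipsilateral values of 42.1 to 56.9. In TPM the ipsilateral library of animal 3 fell below the contralateral libraries of animals 1, 2 and 5. Animal 3 had the lowest level on both sides and on both scales.

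**Figure D1:**
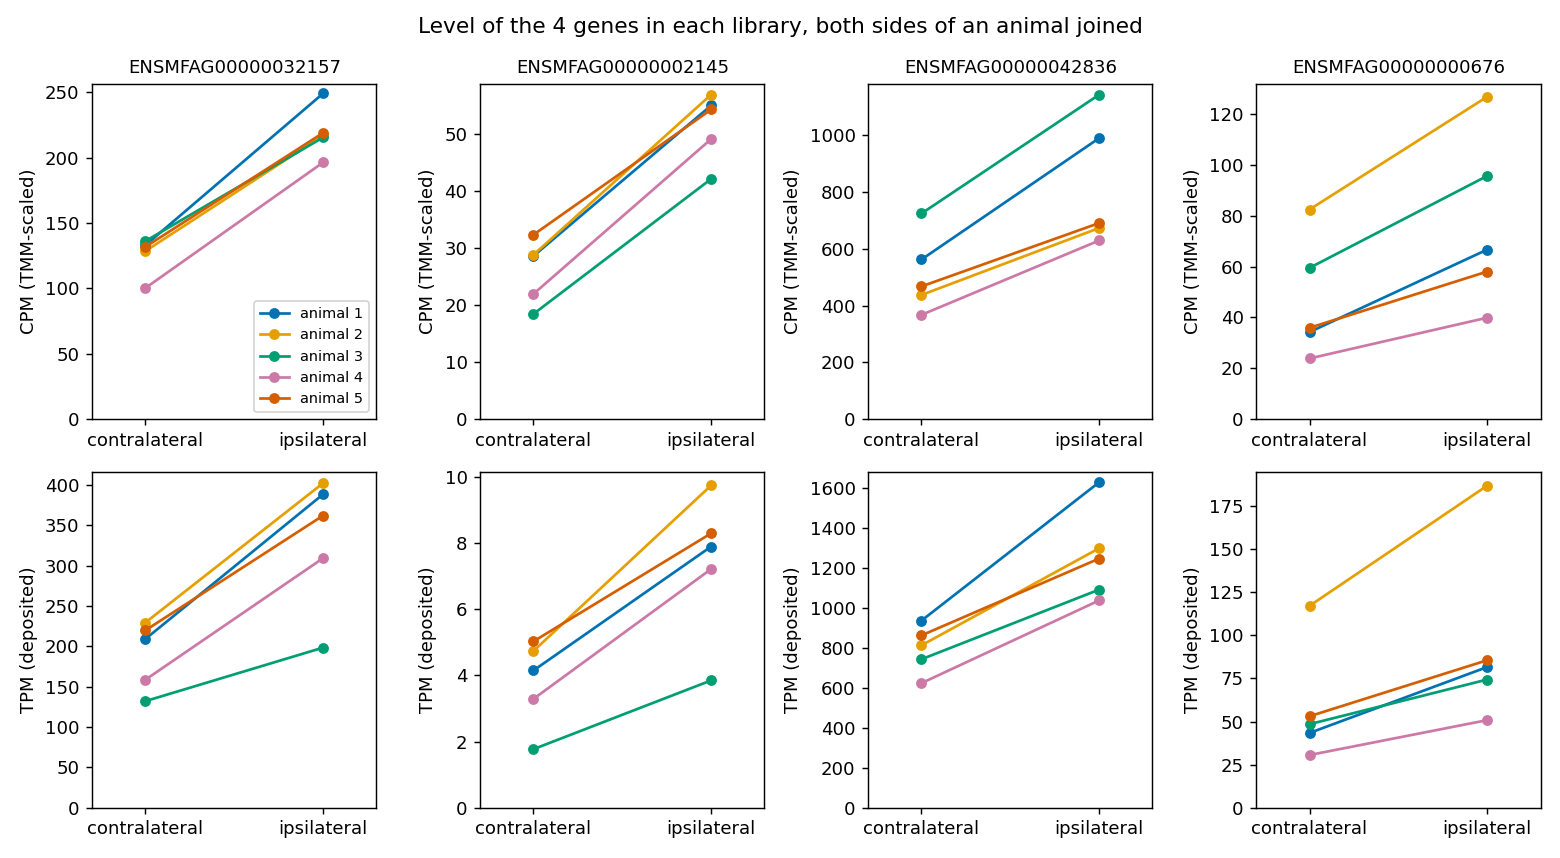
Level of each gene (columns) in the 10 libraries, as CPM after TMM scaling (top row) and deposited TPM (bottom row); each line joins the contralateral and ipsilateral library of 1 animal. Every line rises, the groups are clear of each other in CPM for ENSMFAG00000032157 and ENSMFAG00000002145 and in TPM for ENSMFAG00000042836, and animal 2 stands highest for ENSMFAG00000000676.

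The side difference, for which the genes were chosen, was 1.61- to 2.00-fold. The edgeR fit with animal as a block gave a log2 fold change (ipsilateral over contralateral) of 1.00 ± 0.062 (SE) for ENSMFAG00000002145, 0.80 ± 0.048 for ENSMFAG00000032157, 0.74 ± 0.051 for ENSMFAG00000000676 and 0.69 ± 0.046 for ENSMFAG00000042836. Their median was 0.77, against -0.00034 over all tested genes and 0.39 over the genes called higher. All 4 were among the 364 genes called higher at an adjusted p under 0.05, which were 2.25% of tested genes (2.75% were called in either direction), and all 4 were higher in 5 of 5 animals, as were 8.13% of tested genes. In CPM 2 of the 4 had no overlap between the groups, as had 0.26% of tested genes. The matching share in TPM was not counted. Nothing is read from these counts, since the contrast chose the genes. In bulk tissue, more RNA per cell and more cells of a type cannot be told apart.

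The places of the 4 genes by fold change restate their choice and are given as a description. Among all 16143 tested genes the log2 fold changes ranked 53 (ENSMFAG00000002145), 113 (ENSMFAG00000032157), 141 (ENSMFAG00000000676) and 171 (ENSMFAG00000042836). Among the 177 tested genes with at least the contralateral CPM of ENSMFAG00000042836, it ranked first. ENSMFAG00000032157 ranked 4 of 1389, ENSMFAG00000002145 ranked 2 of 6483 and ENSMFAG00000000676 ranked 12 of 4135 by the same comparison.

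The 5 animals differed in the size of the rise. For ENSMFAG00000032157 the log2 CPM difference was 0.91, 0.75, 0.66, 0.97 and 0.73 in animals 1 to 5. For ENSMFAG00000042836 it was 0.82, 0.62, 0.66, 0.78 and 0.56, and for ENSMFAG00000000676 it was 0.96, 0.62, 0.68, 0.74 and 0.69. Animal 1 or animal 4 had the largest rise in each of these 3 genes, and both were among the upper 2. ENSMFAG00000002145 had another order, with 0.94, 0.98, 1.19, 1.16 and 0.75, so that animal 3 came first. Animal 5 had the smallest rise in ENSMFAG00000002145 and ENSMFAG00000042836. With animal 3 left out, the fitted log2 fold changes were 0.84 for ENSMFAG00000032157, 0.95 for ENSMFAG00000002145, 0.69 for ENSMFAG00000042836 and 0.75 for ENSMFAG00000000676, so that the 4 rises were about as large without the animal that stood apart.

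Counting error alone was smaller than this spread. The SD of the rise over the 5 animals was 0.13 for ENSMFAG00000032157, 0.18 for ENSMFAG00000002145, 0.11 for ENSMFAG00000042836 and 0.13 for ENSMFAG00000000676. The counting error of a single animal's difference was at most 0.032, 0.077, 0.017 and 0.068 in the same order, and it covers counting only. Over all tested genes the median SD of the side difference was 0.16, and 28.7% to 56.1% of them had a smaller SD than the respective gene. The genes were chosen in part for an even difference, so nothing is read from the place of these SDs among tested genes.

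**Figure D2:**
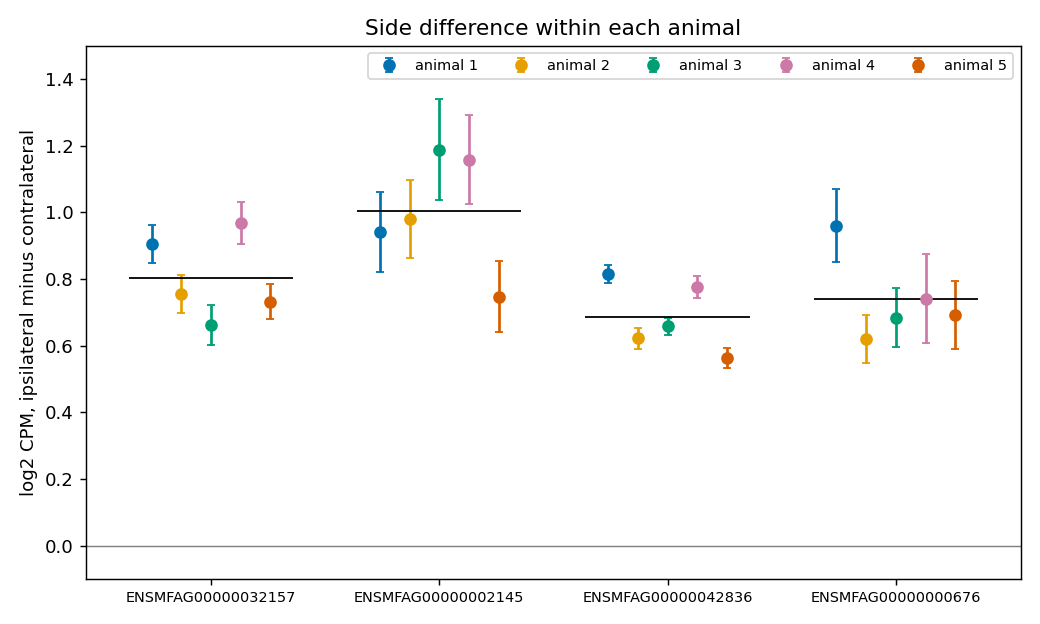
Difference in log2 CPM between the ipsilateral and contralateral library of each animal, with bars of 1.96 counting errors on either side and a horizontal line at the mean of 5 animals. All 20 differences lie between 0.56 and 1.19, and animal 5 is the lowest for ENSMFAG00000002145 and ENSMFAG00000042836.

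Compared with one another, 3 of the genes had the same order of rise in every animal, and ENSMFAG00000000676 had no fixed place in it. Some gaps in this order were smaller than the counting error. In animal 3 the rises of ENSMFAG00000032157 and ENSMFAG00000042836 were 0.662 and 0.659 (counting errors 0.030 and 0.013). In animal 5 those of ENSMFAG00000002145 and ENSMFAG00000032157 were 0.747 and 0.732 (counting errors 0.054 and 0.027). ENSMFAG00000002145 rose more than ENSMFAG00000032157 and more than ENSMFAG00000042836 in 5 of 5 animals, and more than ENSMFAG00000000676 in 4 of 5. By TPM the last of these counts was 5 of 5. ENSMFAG00000032157 rose more than ENSMFAG00000000676 in 3 of 5 animals, and ENSMFAG00000042836 rose more than ENSMFAG00000000676 in 2 of 5. ENSMFAG00000032157 rose more than ENSMFAG00000042836 in 5 of 5 animals, and the TPM ratio of ENSMFAG00000032157 to ENSMFAG00000042836 went from 0.239 ± 0.040 to 0.264 ± 0.053 (SD, n = 5). ENSMFAG00000042836 and ENSMFAG00000000676 had the most similar rises, with a root mean square difference of 0.089 on the log2 scale over the 5 animals. The widest gap was 0.35, between ENSMFAG00000002145 and ENSMFAG00000042836. No correlation coefficient is given for these pairs, because 5 animals are too few for one.

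The spread between animals in the level of a gene played no part in the choice, and it differed among the 4. The SD of the 5 animal means of log2 CPM was 0.14 for ENSMFAG00000032157, 0.25 for ENSMFAG00000002145, 0.37 for ENSMFAG00000042836 and 0.67 for ENSMFAG00000000676, and the median tested gene had 0.37. Of tested genes, 11.8% had a smaller SD than ENSMFAG00000032157 and 80.2% a smaller one than ENSMFAG00000000676. The mean rise of ENSMFAG00000000676 was 1.10 times its SD between animals, while that of ENSMFAG00000032157 was 5.71 times. These places depended on animal 3, the one with the low TMM factors. Without it the SDs were 0.16, 0.16, 0.27 and 0.72 in the same order of genes and the median tested gene fell to 0.15. Then 53.7% and 53.0% of tested genes had a smaller SD than ENSMFAG00000032157 and ENSMFAG00000002145, 76.5% a smaller one than ENSMFAG00000042836 and 97.1% a smaller one than ENSMFAG00000000676. ENSMFAG00000000676 was the most uneven of the 4 either way.

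Differences between the animals were then tested with edgeR's quasi-likelihood F test of the animal terms, adjusted over all 16143 genes. All 4 genes were called, as were 80.7% of tested genes. On simulated data this test made more false calls than its threshold allows, so its counts of calls may be too high. The 2 libraries of an animal are its 2 sides, so the error in this test is the spread of the side differences, whose evenness was part of the choice. The p-values are therefore not independent of the choice, and nothing is read from them about the 4 genes. The edgeR adjusted p was 5.77e-10 for ENSMFAG00000000676, 1.08e-07 for ENSMFAG00000042836, 0.000364 for ENSMFAG00000002145 and 0.00459 for ENSMFAG00000032157. The last call was lost without animal 4, the one with the low contralateral level (edgeR adjusted p 0.376). Without animal 3, 5249 genes were called between the other animals (32.5% of tested genes). The 4 genes were among them, with edgeR adjusted p up to 0.0408 (ENSMFAG00000002145). These values share the limits above and are not a check on the 4 genes.

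**Figure D3:**
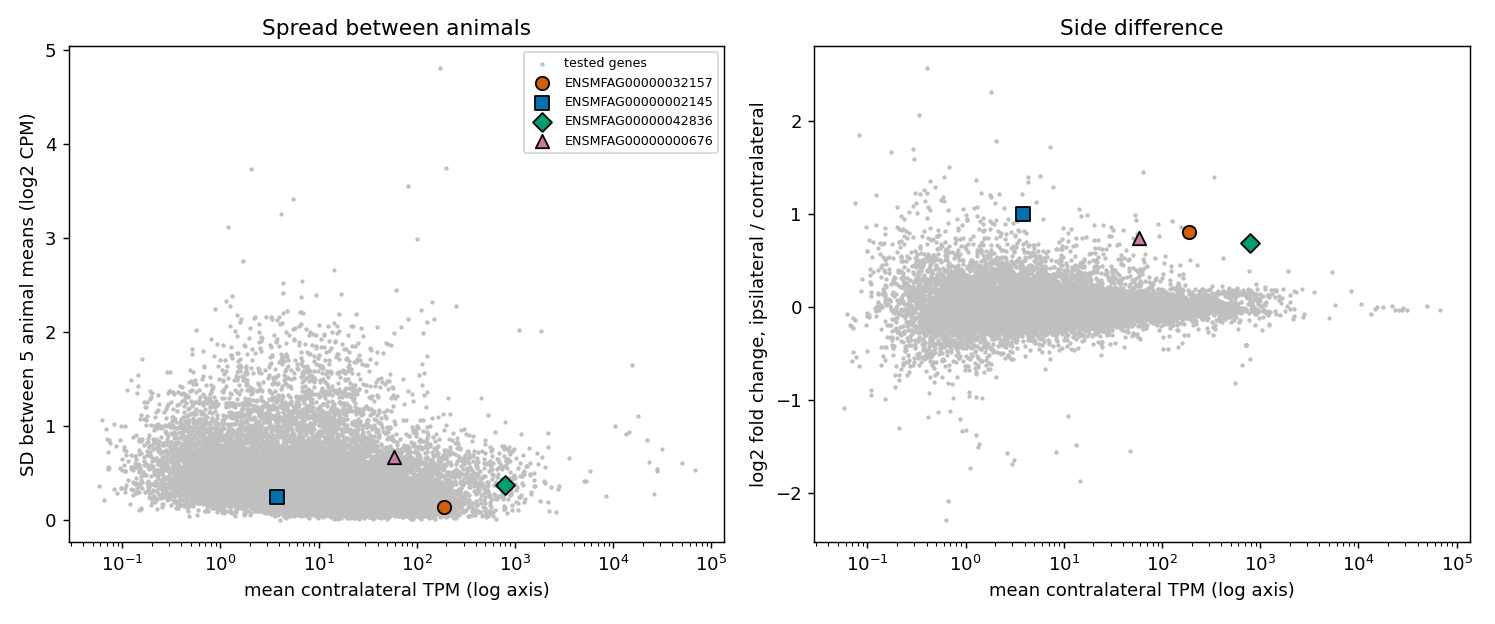
Each grey point is a tested gene, placed by its mean contralateral TPM (log axis) and, on the left, by the SD of its 5 animal means in log2 CPM or, on the right, by its log2 fold change between the sides; large symbols are the 4 genes. ENSMFAG00000000676 lies high and ENSMFAG00000032157 low in spread between animals, with SDs of 0.67 and 0.14, and the 4 genes span 3.80 to 795 TPM. The low place depended on animal 3: without it the SD of ENSMFAG00000032157 was 0.16, beside 0.15 for the median tested gene.

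The animals that were high or low were not the same for each gene. Relative to the median animal, the contralateral CPM of animal 3 was 1.55 times for ENSMFAG00000042836 and 1.66 times for ENSMFAG00000000676 but 0.645 times for ENSMFAG00000002145, and 1.03 times for ENSMFAG00000032157. Animal 2 was at 2.30 times for ENSMFAG00000000676 and at 0.936 to 1.01 times for the other genes. Animal 4 was below the median animal in all 4, at 0.664 to 0.786 times. The root mean square difference of the animal means, centred on each gene's own mean, was smallest between ENSMFAG00000032157 and ENSMFAG00000002145 (0.22 on the log2 scale) and largest between ENSMFAG00000002145 and ENSMFAG00000000676 (0.64).

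The 4 genes were not each other's nearest match in the table. Likeness was measured over the 10 libraries as the root mean square difference in centred log2 CPM, so a smaller value is more alike. The measure includes the rise for which the 4 genes were chosen. Their closeness to one another and to other rising genes is therefore partly set by that choice, and is given as a description. Nearest to ENSMFAG00000032157 was ENSMFAG00000042109 (0.15), which went from 10.7 ± 1.46 to 16.9 ± 2.49 CPM (SD, n = 5). Nearest to ENSMFAG00000002145 was ENSMFAG00000038840 (0.22), nearest to ENSMFAG00000042836 was ENSMFAG00000032693 (0.14) and nearest to ENSMFAG00000000676 was ENSMFAG00000044181 (0.30). The last 3 are scarce, with mean contralateral levels of 6.09, 1.68 and 1.22 CPM. Over all tested genes the median distance from the 4 was 0.55 to 0.79. Within the set, ENSMFAG00000032157 was the fourth nearest gene to ENSMFAG00000002145, while ENSMFAG00000000676 was 7992 or more places away from each of the others. Seen from ENSMFAG00000000676, ENSMFAG00000032157 was at place 132, ENSMFAG00000042836 at 216 and ENSMFAG00000002145 at 1497.

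The effective length of the genes gave a readout that was not used to choose them. For a given gene it can move when transcripts of different length change their shares. Properties of a library other than these shares can move it as well, and what moved it here was not tested. ENSMFAG00000002145 was at 4.68 ± 0.017 times the median tested gene on the contralateral side and 4.68 ± 0.016 on the ipsilateral side (SD, n = 5), longer on the ipsilateral side in 4 of 5 animals (two-sided exact sign-flip permutation p = 0.188). ENSMFAG00000042836 was longer on the ipsilateral side in 5 of 5 animals, by 0.18%, 0.20%, 2.44%, 1.44% and 0.71% in animals 1 to 5. The average change was 0.99%, from 0.413 ± 0.015 to 0.418 ± 0.018 (exact sign-flip p = 0.063, the smallest that 5 animals can give). The share of tested genes that were longer on that side in 5 of 5 animals was not counted, so nothing is read from that count. Of the 12383 tested genes with a TPM of at least 1 in every library, 84.8% had a smaller mean change in length than ENSMFAG00000042836, 63.8% a smaller one than ENSMFAG00000032157, 55.4% a smaller one than ENSMFAG00000002145 and 45.3% a smaller one than ENSMFAG00000000676. ENSMFAG00000032157 went from 0.441 ± 0.012 to 0.440 ± 0.013 and ENSMFAG00000000676 from 0.533 ± 0.023 to 0.534 ± 0.026, each being longer on the ipsilateral side in 2 of 5 animals (exact p = 0.375 and 0.875). This test cannot reach 0.05 with 5 animals. The largest change in length in any animal was 2.44%, beside rises in CPM of 1.48-fold or more.

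**Figure D4:**
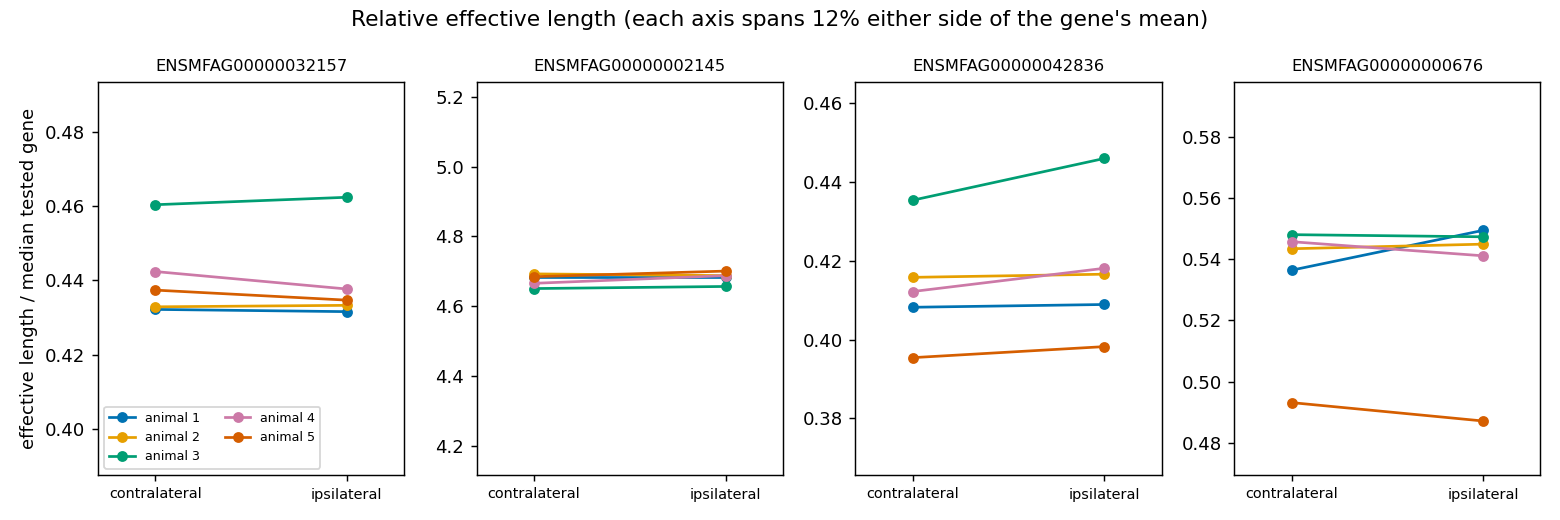
Effective length of each gene relative to the median tested gene of the library, with the 2 sides of an animal joined; each vertical axis spans 12% on either side of the gene's mean and does not start at 0. Sides differ by at most 2.44%, animal 3 stands high for ENSMFAG00000032157 and ENSMFAG00000042836, and animal 5 stands low for ENSMFAG00000000676.

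All expected counts of the 4 genes were whole in 10 of 10 libraries, within 0.005 of a whole number, as were those of 87.4% of tested genes. RSEM leaves fractions where it divides reads between similar genes, and no such fraction was seen in these 4.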

How the data were processed

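The members and lists were chosen with earlier results of these data known. Per the labels' protocols, libraries were made with a stranded kit for polyadenylated RNA. The submitters' processing notes name fastp 0.22.0, STAR 2.7.9a and RSEM 1.3.1; build, annotation and settings are not given in these sources. The deposited table holds 1 RSEM expected count and 1 TPM value per gene and library, per the file headers. TPM, as deposited by the authors, has 1 common sum per library and keeps no depth.

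Expected counts were rounded and analysed in edgeR 4.0.16 (R 4.3.3): filterByExpr (16143 genes kept, 8005 removed), TMM, and the robust quasi-likelihood F test with animal and side as terms. Adjusted p-values are Benjamini-Hochberg over all tested genes, and each SE was taken as |log2 fold change| / √F. CPM used TMM-adjusted totals and log2 CPM a prior count of 2. The counting error of a log2 difference is that of 2 Poisson counts. Effective length was the expected count divided by TPM, relative to the median over 16016 tested genes with TPM above 0 in all libraries, and the sign-flip test ran over the 5 animals.

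The block follows the numbering of animals by the labels. After removal of side means, log2 CPM correlated at r = 0.676 to 0.942 between the 2 libraries of an animal and at most 0.395 between animals, across genes. No 2 libraries were identical, and the closest pair had a chi-square of 10.0 per degree of freedom (over genes with at least 20 summed counts). Alternatives were RLE, upper-quartile and no scaling factor, other filters, DESeq2 1.42.0, limma 3.58.1 on log2(TPM + 1), no block, and each animal left out. The tests were checked on simulated data, where the side test kept close to its threshold and the animal test made more false calls than its threshold allows. The rule for named genes took the 4 genes and the nearest tested gene to each. The marker lists that were set out could not be applied without symbols, and 0 of the 20 value columns were left unmapped.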

Additional observations from a re-analysis of the deposited data

Results flagged for a closer look

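By Dixon's test, a value stood far from the other 4 in 6 of 28 groups, and about 1 in 20 groups would by chance. The groups share libraries, so the 6 are not separate. In ENSMFAG00000032157 the contralateral library of animal 4 was low, at 100.3 CPM with 128.6 as the next value. This was flagged in CPM only: in TPM animal 3 was the lowest at 132, with animal 4 next at 159. ENSMFAG00000000676 was high in animal 2 on both sides, at 117 TPM (next 53.1) and 187 TPM (next 85.6). In CPM ENSMFAG00000000676 was not flagged, with animal 2 at 82.4 (next 59.5) and 126.8 (next 95.7). Its relative effective length was short in animal 5 on both sides, at 0.493 (next 0.536) on the contralateral and 0.487 (next 0.541) on the ipsilateral side. The relative effective length of ENSMFAG00000032157 was long in the ipsilateral library of animal 3, at 0.462 (next 0.438).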

How the results depend on the processing

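The log2 fold change between the sides stayed above 0 in all 52 alternative values for the 4 genes (13 each), which their choice makes likely. It moved by more than the gene's SD of the rise over the 5 animals in 1 of them. That was ENSMFAG00000002145, with 0.81 on log2(TPM + 1), where the pseudocount weighs on its low TPM. Its plain log2 TPM ratio averaged 0.99 ± 0.17 (SD, n = 5). The fit with no replicate block kept the fold changes but ignored the pairing of the sides, so the spread between animals entered its error. Its SEs were 0.11, 0.17, 0.23 and 0.39 for ENSMFAG00000032157, ENSMFAG00000002145, ENSMFAG00000042836 and ENSMFAG00000000676. It called 0 of all tested genes (193 at an unadjusted edgeR p under 0.05). Nothing is read from this about the rise of the 4 genes. The side count of 444 genes became 43 with limma on log2(TPM + 1), and 135 to 1255 when an animal was left out (135 without animal 1, 196 without animal 2, 206 without animal 4 and 1255 without animal 5). The cause was not tested. The count between animals, 13030, was 5249 without animal 3, and 12662 to 13062 without another animal. The adjusted p between animals for ENSMFAG00000032157 was 0.00115 to 0.376 with an animal left out. Over all alternatives, 1 of 48 adjusted p-values for the 4 genes lost its call, that of ENSMFAG00000032157 without animal 4. As above, nothing is read from these p-values about the 4 genes. The mean log2 length difference between the sides of ENSMFAG00000000676, 0.0013, turned to -0.044 with libraries summed by side and to -0.0070 without animal 1 (-0.0070 to 0.0061 over the animals left out), and that of ENSMFAG00000002145 went from 0.0023 to 0.013 with libraries summed. Summed values weight the animals by level and are not paired. Scaling by library totals and the SDs between animals without animal 3 were chosen after seeing the data. The first kept every call for the 4 genes. The second lowered the SD of ENSMFAG00000002145 from 0.25 to 0.16.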
